A study of Rattus norvegicus with 119 samples.

Results

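MicroRNAs (miRNAs) of the bladder urothelium were compared between male Sprague-Dawley rats given rosiglitazone for 28 days and male rats given vehicle for the same time. The rosiglitazone group held the 5 arrays of rats dosed by mouth every day with rosiglitazone maleate at 10 mg/kg/day. The vehicle group held 4 arrays of rats dosed with 0.5% methylcellulose, after replicate 2 was left out because the labels mark it as failing quality control. These 9 arrays were chosen by their labels, from 119 arrays in all, of which 116 entered the fit. Each array holds the urothelium of a different rat, 5 rats being profiled of the 10 of each sex that were dosed per group. The tissue was scraped from the opened bladder a day after the last dose. Further groups were used for comparison: male rats given rosiglitazone or vehicle for 3 or 90 days, male rats given pioglitazone hydrochloride at 16 or 63 mg/kg/day for 28 days, and female rats given rosiglitazone or vehicle for 28 days. The age of the rats is not given in the labels.

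Rosiglitazone and pioglitazone are thiazolidinediones, insulin sensitisers that activate the nuclear receptor PPAR gamma, which is itself expressed in urothelium and promotes its differentiation. A miRNA is a short RNA cut from a hairpin precursor. One strand of the hairpin, usually the abundant one, is loaded into Argonaute and pairs with messenger RNAs through its seed, bases 2 to 8, and the minor strand, marked with an asterisk on this array, is mostly degraded.

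Mature sequences are shown for miRNAs on which the comparison turns. They come from rat RefSeq annotation on build GRCr8, with the strand of each older array name assigned by standard nomenclature, and the capitals mark the seed. The first lines are miRNAs with negative differences between rosiglitazone and vehicle, several of them minor strands of let-7 hairpins or C-rich sequences. All but miR-29a* are among the larger ones, and miR-29a* is shown because its groups did not overlap.
let-7b*: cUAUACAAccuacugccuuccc
let-7d*: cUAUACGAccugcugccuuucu
miR-3596b: aACUAUGCaaccuacuaccu
miR-328b-3p: cUGGCCCUcucugcccua
miR-211: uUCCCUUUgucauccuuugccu
miR-207: cUUCUCCUggcucuccucccuuu
miR-346: uGUCUGCCugagugccugccucu
miR-99b*: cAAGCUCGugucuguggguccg
miR-191*: gCUGCACUuggauuucguuccc
miR-29a*: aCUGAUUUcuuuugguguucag
The next lines are miRNAs with positive differences.
miR-126: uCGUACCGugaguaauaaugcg
miR-19a: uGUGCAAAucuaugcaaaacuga
miR-20b-5p: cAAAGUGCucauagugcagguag
miR-98: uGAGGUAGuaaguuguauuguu
let-7e: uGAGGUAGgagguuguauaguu
miR-223: uGUCAGUUugucaaauacccc
miR-191: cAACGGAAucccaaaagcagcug

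Several of these sequences are related by seed or by position. miR-98 and let-7e carry the seed GAGGUAG, which 8 miRNAs of the table share. The seed UAUACAA of let-7b* is also that of let-7a-1* and let-7f-1*, and UCCCUUU of miR-211 is also that of miR-204. let-7e lies at chr1:67350243-67350264 and miR-99b* at chr1:67350108-67350129, both on the plus strand of a hairpin cluster they share with miR-125a. miR-3596b is annotated at chr17:16322275-16322294 on the minus strand, opposite let-7d at chr17:16322273-16322294 on the plus strand. The minor strand let-7d* lies at chr17:16322327-16322348 in the same hairpin.

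Values are log2 intensities as deposited, between 2.69 and 16.87 over the table, with 301 miRNAs on each array. There were no detection calls, and many values lay close to the lower end, where differences are compressed. Levels of different miRNAs are not comparable, since each probe has its own response.

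The vehicle arrays did not form one group. The mean profile of the 10 male vehicle arrays of days 3 and 90 served as a yardstick. Each of those 10 arrays was set against the mean of the others, and they correlated at r = 0.895 to 0.986. Vehicle replicate 1 of day 28 had r = 0.904, whereas vehicle replicates 3, 4 and 5 had r = 0.613, 0.738 and 0.556. The vehicle array that failed quality control had r = 0.461. Replicates 3, 4 and 5 correlated with that failed array at 0.870, 0.860 and 0.846 and among themselves at 0.907 to 0.976, while vehicle replicate 1 correlated with the failed array at 0.380. Of the yardstick arrays, replicate 1 of day 3 correlated with the failed array at 0.690 and the others at 0.380 to 0.445. Rosiglitazone replicates 1, 2, 3 and 5 had r = 0.974, 0.966, 0.900 and 0.904 with the yardstick, and rosiglitazone replicate 4 stood apart at r = 0.611. Of the 107 other arrays used, 2 had an r at or below 0.738, both from females. Array medians ran from 3.76 to 5.47 with rosiglitazone and from 4.00 to 4.82 with vehicle, below the 5.15 to 5.66 of the vehicle males of days 3 and 90 in all but 2 of the 9 arrays. What sets these arrays apart was not tested, and results are given with and without them.

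**Figure D1:**
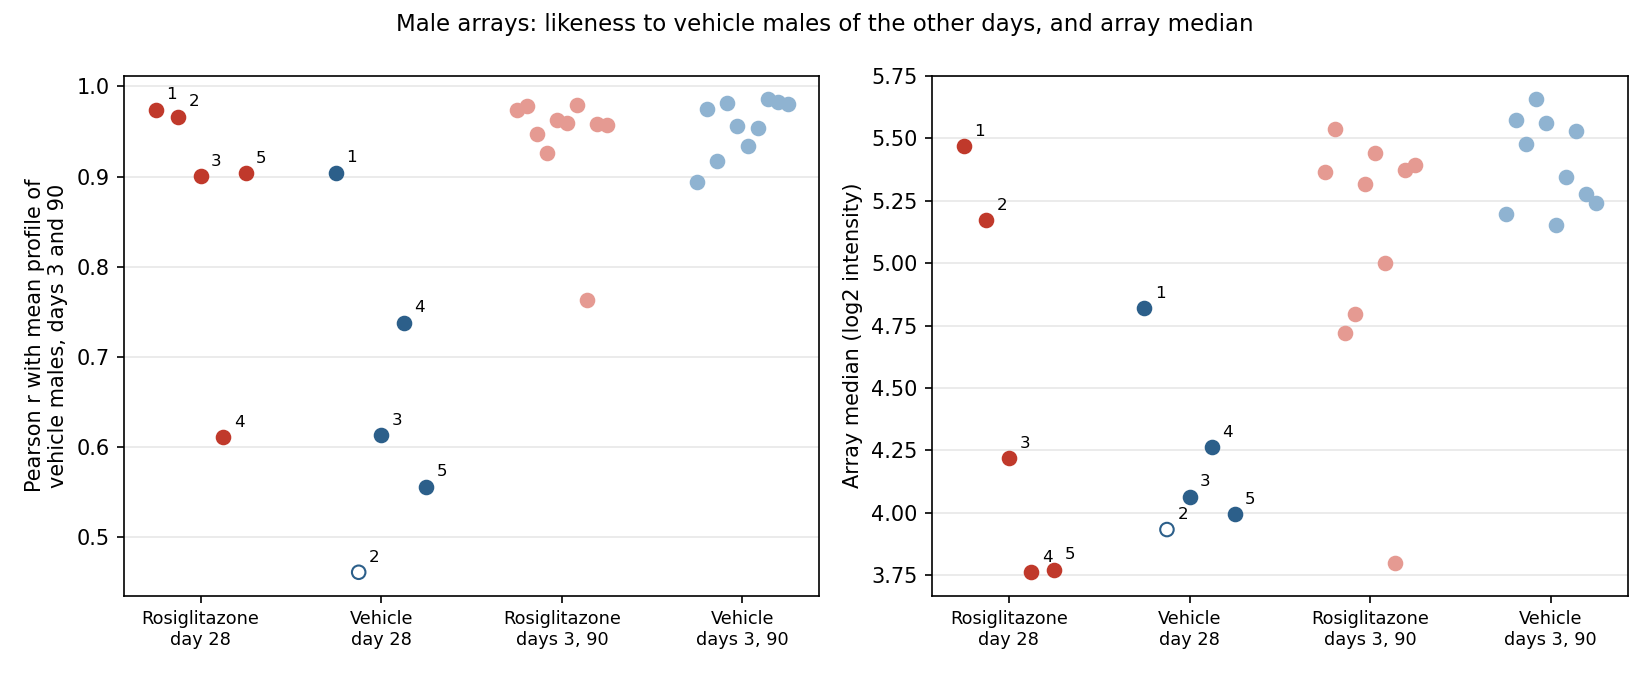
Left, Pearson r of each male array with the mean profile of vehicle males of days 3 and 90, the array itself left out. Right, the median log2 intensity of each array over 301 miRNAs. Numbers are replicates and the open circle is the vehicle array that failed quality control. Vehicle replicates 3, 4 and 5 lie between 0.556 and 0.738, beside the failed array at 0.461, and rosiglitazone replicate 4 lies at 0.611.

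With rosiglitazone, 22 miRNAs were called higher and 52 lower than with vehicle, a call being an adjusted p under 0.05 in limma over all 24 groups. These are 74 of 301 miRNAs, or 24.6% (7.31% higher and 17.3% lower). The median log2 difference of all miRNAs, rosiglitazone minus vehicle, was 0.16, and it was -0.03 after each array was centred on its median, when 19 higher and 46 lower were called. The lower calls were led by let-7b*, miR-328b-3p and miR-211, and the higher calls by miR-126, miR-19a and miR-223. Quantile normalisation gave 43 higher and 57 lower calls, and a fit with array median as covariate 37 higher and 55 lower. A fit of the 2 groups alone, with the spread taken only from these 9 arrays, gave 0 calls at the same threshold, with 70 miRNAs (23.3%) at an unadjusted p under 0.05. The standard errors (SE) come from the variance over all 24 groups, which among the 52 lower calls had a median standard deviation of 0.62, against 0.41 among the rosiglitazone arrays and 2.15 among the vehicle arrays.

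The split within the vehicle group ran through nearly all calls. In all 52 miRNAs called lower, vehicle replicate 1 was the lowest vehicle array, against 102 of all 301. In 38 of the 52 it lay within the range of the rosiglitazone arrays, which is no particular trait of these calls, since it did so in 223 of all 301. In 50 of the 52, every rosiglitazone array lay below vehicle replicates 3, 4 and 5, against 59 of all 301. The median level over the 52 was 3.64 for the rosiglitazone mean and 7.03 for the vehicle mean. Vehicle replicate 1 had a median of 3.44, and replicates 3, 4 and 5 had 8.32, 7.70 and 8.70. With vehicle replicate 1 as the lone vehicle array, a setting chosen after seeing the data in which that array is assumed to vary like the other groups, 2 miRNAs were called (0.664%), both lower. These were miR-664-1*, with a log2 difference of -4.09 (SE 1.08, adjusted p = 0.0405), and miR-878, with -2.70 (SE 0.71, adjusted p = 0.0405), named here after their values were seen. With rosiglitazone replicate 4 also left out, 0 were called, and 13 had an unadjusted p under 0.05. An exact permutation test of each miRNA over these 9 arrays, two-sided with 0.0159 as the smallest p it can give, found p under 0.05 for 53 of 301 miRNAs (17.6%), for 21 of the 52 lower calls and for 14 of the 22 higher calls.

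The minor strands of the let-7 hairpins were lower with rosiglitazone than with vehicle as a set. All 5 measured (let-7a-1*, let-7b*, let-7d*, let-7e* and let-7f-1*) were called lower, where 17.3% of all miRNAs were. Their median log2 difference was -3.58, against 0.16 over all miRNAs. The let-7 main strands restrain proliferation and target Hmga2 and Ras messenger RNAs, and no such role is established for the minor strands. let-7b* was at 3.20, 3.12, 5.60, 3.27 and 3.66 in the rosiglitazone arrays (replicates 1 to 5) and at 3.19, 11.60, 9.78 and 11.35 in the vehicle arrays (replicates 1, 3, 4 and 5). Vehicle replicate 1 lay among the rosiglitazone arrays and the other vehicle arrays far above all of them. Its difference was -5.21 on the log2 scale (SE 0.66, adjusted p = 1.45e-10; exact permutation p = 0.0794). It was -7.14 without vehicle replicate 1 and -4.34 without vehicle replicate 3, and the rosiglitazone arrays lay near the lower end of the scale, so no fold is given. let-7d* had 6.76, 5.58, 7.20, 3.77 and 5.15 with rosiglitazone and 6.48, 11.03, 10.14 and 11.23 with vehicle. Replicates 1 and 3 of rosiglitazone were above vehicle replicate 1, so the groups overlapped. Its difference was -4.02 (SE 0.84, adjusted p = 5.15e-05; exact permutation p = 0.0476). With vehicle replicate 1 alone, the median of the 5 minor strands was 0.04, and with rosiglitazone replicate 4 left out it was -3.54. Against vehicle males of days 3 and 90 in place of those of day 28 it was 0.01, with 0 called. Mean levels of the 5 per array ran from 3.57 to 5.00 with rosiglitazone, against 3.95 in vehicle replicate 1, 8.61 to 9.47 in vehicle replicates 3, 4 and 5, and 3.60 to 6.47 in vehicle males of days 3 and 90.

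Of the 8 let-7 main strands measured, 2 were called higher and 0 lower, and the 8 differences, 0.11 to 2.48, were all positive, as were 179 of all 301. let-7e reached 11.65, 11.26, 11.996, 11.14 and 11.84 in the rosiglitazone arrays, against 10.54, 7.74, 10.60 and 9.60 in the vehicle arrays. All rosiglitazone arrays lay above all vehicle arrays, vehicle replicate 1 included. The log2 difference of let-7e was 1.96 (SE 0.52, adjusted p = 0.00191; exact permutation p = 0.0159). Without vehicle replicate 3, the lowest array, it was 1.33 and no longer called (adjusted p = 0.0743). miR-98, an X-linked member of the family, had 8.998, 8.87, 8.94, 4.87 and 9.16 with rosiglitazone and 8.19, 3.88, 5.66 and 5.02 with vehicle. Rosiglitazone replicate 4 lay among vehicle replicates 3, 4 and 5, and vehicle replicate 1 was nearer to the other rosiglitazone arrays. The difference was 2.48 (SE 0.66, adjusted p = 0.00193), with an exact permutation p of 0.0952. let-7b, whose minor strand differed most of all miRNAs, had a main-strand difference of 0.25 (SE 0.39, adjusted p = 0.697). miR-3596b, annotated opposite let-7d, was at 3.14, 3.24, 3.44, 3.79 and 3.26 with rosiglitazone, against 3.46, 8.58, 7.86 and 9.49 with vehicle. Only rosiglitazone replicate 4 exceeded vehicle replicate 1. Its difference was -3.97 (SE 0.45, adjusted p = 1.91e-12; exact permutation p = 0.0317).

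Across the table, 62 hairpins had both strands measured. The minor strand's difference was below that of its main strand in 40 of them. Among minor strands 18 were called lower and 3 higher, and among main strands 3 were called lower and 6 higher, where 17.3% of all miRNAs were called lower and 7.31% higher. In 2 hairpins the strands were called in opposite directions, let-7e with let-7e* and miR-191 with miR-191*. The levels of miR-191 lay near the lower end of the scale in both groups, and its call was lost after centring (adjusted p = 0.269). Over all 71 names with an asterisk, 19 were called lower and 4 higher, with a median difference of 0.10. In 3 hairpins it was the main strand that was called lower. These were miR-211, with miR-211* at 0.81 (adjusted p = 0.432), miR-328a, with miR-328a* at -0.09 (adjusted p = 0.881), and miR-34a, with miR-34a* at 0.58 (adjusted p = 0.389).

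Other lower calls were spread over miRNAs with known roles in different tissues. miR-211, an intronic miRNA of Trpm1 known from melanocytes, was at 3.22, 3.44, 7.79, 3.90 and 3.49 with rosiglitazone, against 3.22, 11.28, 10.15 and 11.67 with vehicle. Rosiglitazone replicate 3 lay between the low arrays and the high vehicle arrays. The difference was -4.71 (SE 0.72, adjusted p = 3.47e-08; exact permutation p = 0.0794). miR-204, which shares its seed and lies in Trpm3, differed by -3.79 (SE 0.80, adjusted p = 5.47e-05). miR-328b-3p was at 3.05, 3.13, 6.52, 3.13 and 3.52 with rosiglitazone and at 3.03, 11.11, 10.05 and 11.30 with vehicle. Here vehicle replicate 1 was the lowest array of all 9. Its difference was -5.002 (SE 0.68, adjusted p = 1.03e-09), and the exact permutation p was 0.0952. miR-328a, described in human cells to target the transporter ABCG2, differed by -3.08 (adjusted p = 0.00358). The other 7 of the 12 lower calls of largest size were miR-349 (-4.63), miR-702-3p (-4.59), miR-3550 (-4.47), miR-487b* (-4.44), miR-346 (-4.28), miR-207 (-3.98) and miR-99b* (-3.92). In all 7, vehicle replicate 1 lay within the range of the rosiglitazone arrays, as it did in 223 of all 301 miRNAs.

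**Figure D2:**
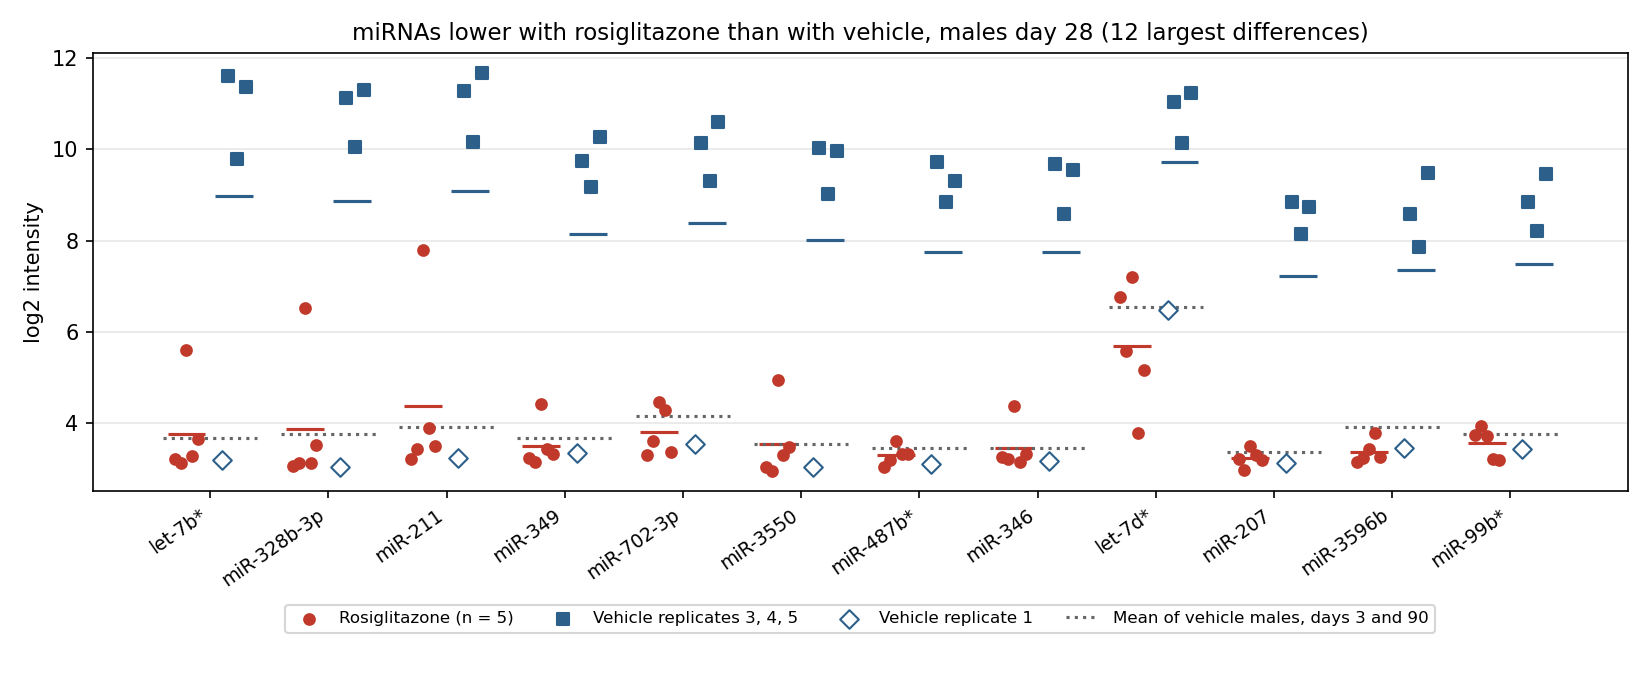
Log2 intensity of the 12 miRNAs with the largest negative differences, in each rosiglitazone array (circles), vehicle replicates 3, 4 and 5 (squares) and vehicle replicate 1 (open diamonds). Short lines are group means and dotted lines the mean of vehicle males of days 3 and 90. In let-7b*, the squares lie at 9.78 to 11.60 and the diamond at 3.19, beside the rosiglitazone arrays.

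Further lower calls lay in lists of related miRNAs, to be read against the 17.3% called lower over all miRNAs. In the imprinted Dlk1-Dio3 cluster, whose miRNAs are expressed from the maternal chromosome, 9 of 32 measured were called lower and 0 higher, while the list's median was 0.09. Beside miR-487b*, these included miR-154 (-3.51), miR-329 (-2.87) and miR-299 (-2.82). In the miR-181 family, known from lymphocyte development, 3 of 5 were called lower, among them miR-181b (-3.41) and miR-181d (-3.22). In the family of miR-99, miR-100 and miR-125, 3 of 9 were called lower, and all 3 are minor strands (miR-99b*, miR-99a* and miR-125b*). Of the 7 measured miRNAs of hairpins that p53 induces, miR-34b* (-3.90, adjusted p = 3.29e-10) and miR-34a (-1.69, adjusted p = 0.0428) were called lower. The main strand miR-34a was at 12.76, 11.72, 12.86, 5.81 and 12.85 with rosiglitazone and at 12.43, 13.25, 12.66 and 13.22 with vehicle. Rosiglitazone replicate 4 was the lowest array by far, and without it the difference was -0.34 (adjusted p = 0.692).

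Among the higher calls, miR-126, which lies in Egfl7 and marks endothelium, differed most. It was at 10.37, 11.50, 9.91, 5.73 and 10.40 with rosiglitazone, against 8.58, 4.37, 4.60 and 5.36 with vehicle. Rosiglitazone replicate 4 lay below vehicle replicate 1 and above the other vehicle arrays. The log2 difference was 3.86 (SE 0.80, adjusted p = 4.71e-05; exact permutation p = 0.0317), and 1.003 with vehicle replicate 1 alone (adjusted p = 0.974). In scraped tissue, fewer cells of a type and less RNA per cell cannot be told apart. miR-126*, from the same hairpin, differed by 0.80 (adjusted p = 0.322).

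miR-19a, a member of the growth-promoting miR-17-92 cluster, was at 7.69, 7.37, 7.39, 4.25 and 7.93 with rosiglitazone and at 4.31, 3.64, 3.62 and 3.49 with vehicle. Apart from rosiglitazone replicate 4, which lay just below vehicle replicate 1, the rosiglitazone arrays were above all vehicle arrays by more than 3. Its difference was 3.16 (SE 0.75, adjusted p = 0.000430; exact permutation p = 0.0317). Against vehicle replicate 1 alone it was 2.62, with an adjusted p of 0.672. miR-20b-5p, from the X-linked paralog of that cluster, had 8.97, 8.35, 8.91, 3.92 and 9.22 with rosiglitazone, against 7.91, 4.80, 5.09 and 4.76 with vehicle. Rosiglitazone replicate 4 was the lowest of the 9 arrays. The difference was 2.24 (SE 0.79, adjusted p = 0.0256; exact permutation p = 0.159). The call for miR-20b-5p was lost when vehicle replicate 3, 4 or 5 was left out (adjusted p = 0.108, 0.0805 and 0.115), or rosiglitazone replicate 1, 2, 3 or 5 (adjusted p = 0.0815, 0.0544, 0.0732 and 0.0876). Over the miR-17-92 cluster and its paralogs, 2 of 13 miRNAs were called higher and 1 lower (miR-106b*), with a median of 1.18. Of all miRNAs 24.6% were called, 7.31% higher and 17.3% lower, and their median was 0.16. With vehicle replicate 1 as the lone vehicle array the list's median was -0.23, and against vehicle males of the other days it was -0.78. For all miRNAs these medians were -0.06 and -0.50.

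miR-223, a miRNA of neutrophils and other myeloid cells, was at 7.32, 7.21, 7.82, 10.92 and 4.56 with rosiglitazone and at 6.80, 4.37, 4.37 and 4.60 with vehicle. It was the one leading higher call in which rosiglitazone replicate 4 was the highest array, and replicate 5 lay among the vehicle arrays. The difference was 2.53 (SE 0.64, adjusted p = 0.00118; exact permutation p = 0.0476), and 1.69 without rosiglitazone replicate 4 (adjusted p = 0.0294). Other leading higher calls were miR-361 (2.50), miR-542-3p (2.19), miR-301a (2.11), miR-101b (2.07), miR-352 (2.02) and miR-140 (1.98). Without vehicle replicate 5 the calls for miR-361 (1.94, adjusted p = 0.0995), miR-101b (1.43, adjusted p = 0.173) and miR-140 (1.46, adjusted p = 0.0995) were lost. That for miR-361 was also lost without vehicle replicate 3 (2.002, adjusted p = 0.0833), that for miR-101b without rosiglitazone replicate 3 (1.76, adjusted p = 0.0505), and that for miR-542-3p without rosiglitazone replicate 1 (1.83, adjusted p = 0.0589). miR-101b carries the seed through which miR-101 represses Ezh2, and miR-140 is known from cartilage. Over all 22 higher calls, vehicle replicate 1 was the highest vehicle array in 21 (169 of all 301 miRNAs) and lay within the rosiglitazone range in 19 (223 of all 301). Rosiglitazone replicates 1, 2, 3 and 5 were above vehicle replicates 3, 4 and 5 in 21 (122 of all 301). Rosiglitazone replicate 4 was the lowest rosiglitazone array in 16 (147 of all 301). Leaving out that array gave 44 higher and 51 lower calls.

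**Figure D3:**
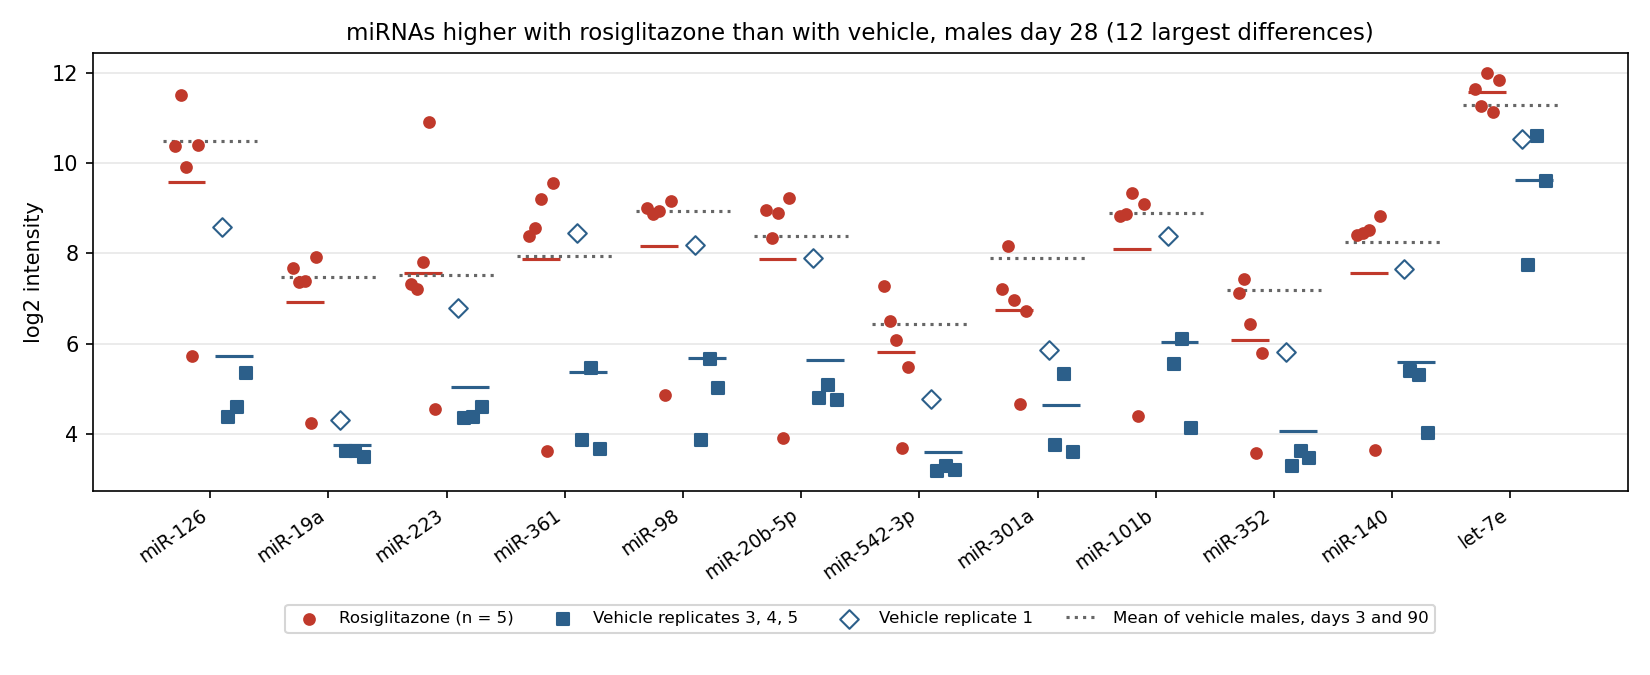
Log2 intensity of the 12 miRNAs with the largest positive differences, with symbols for rosiglitazone arrays, vehicle replicates 3, 4 and 5, vehicle replicate 1 and the mean of vehicle males of days 3 and 90. In miR-126, rosiglitazone replicate 4 lies at 5.73 and the other rosiglitazone arrays at 9.91 to 11.50, against 4.37 to 5.36 in vehicle replicates 3, 4 and 5 and 8.58 in replicate 1.

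The groups did not overlap in 15 of 301 miRNAs (4.98%), 9 of them higher (2.99%) and 6 lower (1.99%) with rosiglitazone. Of these, 3 higher (let-7e, miR-362 and miR-191) and 5 lower (miR-191*, miR-29a*, miR-30d*, miR-30c-1* and miR-106b*) were also called. Groups without overlap give the smallest exact permutation p, 0.0159, by construction, so that p adds nothing to the choice. miR-362, an X-linked miRNA in Clcn5, was at 4.17, 4.19, 4.33, 4.54 and 4.13 with rosiglitazone and at 3.62, 3.03, 3.09 and 2.96 with vehicle. Its rosiglitazone arrays lay close together, and its difference was 1.10 (SE 0.29, adjusted p = 0.00181). miR-191 was at 4.11, 3.52, 3.40, 3.45 and 3.61 with rosiglitazone, against 3.15, 2.73, 2.83 and 2.69 with vehicle. Both miR-362 and miR-191 thus lay near the lower end of the scale, which is 2.69 over the whole table. miR-191* was at 4.19, 3.59, 3.80, 3.34 and 3.28 with rosiglitazone and at 4.27, 8.29, 7.70 and 7.94 with vehicle. In both strands vehicle replicate 1 was the vehicle array nearest to the rosiglitazone arrays. The differences were 0.76 for miR-191 (SE 0.21, adjusted p = 0.00275) and -3.41 for miR-191* (SE 0.36, adjusted p = 1.65e-13).

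miR-29a*, the minor strand of a hairpin whose main strand represses collagens and other matrix genes, was at 3.99, 3.81, 3.94, 3.76 and 3.77 with rosiglitazone and at 4.43, 5.60, 4.78 and 5.15 with vehicle. Here vehicle replicate 1 was clear of the rosiglitazone arrays. The difference was -1.14 (SE 0.26, adjusted p = 0.000188), and -0.58 with vehicle replicate 1 alone (adjusted p = 0.974). After each array was centred on its median, the difference of miR-29a* was larger, at -1.33, but no longer called (adjusted p = 0.0747). The other lower calls without overlap were small, at -0.48 for miR-30d*, -0.45 for miR-30c-1* and -0.42 for miR-106b*, all from levels between 3.09 and 4.09. After centring they were -0.67, -0.65 and -0.61 and none was called (adjusted p = 0.269, 0.293 and 0.342). Each of these 3 calls was also lost without vehicle replicate 5, at -0.41 for miR-30d*, -0.41 for miR-30c-1* and -0.38 for miR-106b* (adjusted p = 0.115, 0.0650 and 0.0503). Other arrays whose removal ended a call were vehicle replicate 3 and rosiglitazone replicate 5 for miR-30d* (adjusted p = 0.0883 and 0.0535), vehicle replicate 4 for miR-30c-1* (0.0519) and vehicle replicate 3 for miR-106b* (0.0510). After centring miR-191 was at 0.57 and miR-362 at 0.91 and neither was called (adjusted p = 0.269 and 0.0792), whereas let-7e and miR-191* were still called (adjusted p = 0.0120 and 1.56e-09).

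Markers of the labelled tissue were present in both groups. miR-205, an epithelial miRNA, was at 11.81 to 12.87 with rosiglitazone and at 11.999 to 13.53 with vehicle, and miR-200a was at 12.50 to 13.61 with rosiglitazone and 13.01 to 14.04 with vehicle. Of 14 urothelial and epithelial miRNAs, limma called 0, with 0 at an unadjusted p under 0.05, and their median difference was -0.05. Their single differences ran from -1.33 to 1.75. Their median was 0.40 without rosiglitazone replicate 4, -0.98 with vehicle replicate 1 alone and -0.24 after centring. Their mean level per array was 5.98 in rosiglitazone replicate 4 and 8.51 to 9.55 in the other rosiglitazone arrays, against 7.84 to 9.31 with vehicle. In rosiglitazone replicate 4, miR-203, an epithelial differentiation miRNA, stood at 3.62, against 11.96 to 12.88 in the other rosiglitazone arrays, while miR-141 stood at 12.64.

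Markers of other cell types that a scraping can hold varied widely between rats of the same group. Of 9 muscle miRNAs limma called 0, with 0 at an unadjusted p under 0.05, and the list's median was 0.83. All 9 differences were positive, at 0.14 to 2.61, as were 179 of all 301. Their mean level per array ran from 3.97 to 7.90 with rosiglitazone and from 3.40 to 6.55 with vehicle. miR-143, of smooth muscle, was at 11.43, 13.70, 7.53, 13.07 and 7.98 with rosiglitazone and at 8.55, 6.59, 13.90 and 3.58 with vehicle, which overlapped throughout. Of 12 fibroblast and mesenchymal miRNAs 0 were called and 10 were positive, with 2 at an unadjusted p under 0.05 (median 0.80, means per array 5.39 to 8.56 with rosiglitazone and 5.03 to 6.99 with vehicle). This list shares miR-143, miR-143* and miR-145 with the muscle list, so the 2 lists are not separate readings. Among 3 red blood cell miRNAs 0 were called and 0 had an unadjusted p under 0.05 (median 0.25), with means per array of 3.64 to 6.44 with rosiglitazone and 3.43 to 5.34 with vehicle. The 5 leukocyte miRNAs held 1 call, miR-223, with means of 4.13 to 6.37 with rosiglitazone and 4.26 to 5.74 with vehicle. The 2 endothelial strands held 1 call, miR-126, with means of 4.88 to 8.68 with rosiglitazone and 3.84 to 6.59 with vehicle. For these lists, the part of other cells in the calls was not tested.

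Lists tied to the drug's target and to tissue responses are given against the 24.6% called over all miRNAs. Of the 4 miRNAs described to target Pparg messenger RNA, limma called 0, and 1 had an unadjusted p under 0.05. miR-27a, which restrains adipocyte formation, was at 11.55, 11.46, 11.49, 5.03 and 11.49 with rosiglitazone and at 10.90, 12.46, 11.86 and 11.85 with vehicle. Rosiglitazone replicate 4 was far below the other arrays. The difference was -1.57 (adjusted p = 0.0777), and -0.27 without that array. Of 24 miRNAs of adipocyte differentiation, 1 was called higher (miR-193*, 1.05) and 3 lower (miR-125b*, -0.85; miR-30d*; miR-30c-1*), all 4 of them minor strands. These are 4 of 24, which is not above the share over all miRNAs, and the list's median was 0.49. Of 10 injury and inflammation miRNAs 0 were called and 1 had an unadjusted p under 0.05, with a median of 0.15. miR-31 among them differed by 2.44 (adjusted p = 0.113) and by 3.56 without rosiglitazone replicate 4 (adjusted p = 0.00960). The cell-cycle family of miR-15, miR-16 and miR-322 had 1 of 7 called higher (miR-322*) and 1 lower (miR-15b*), with a median of 1.44.

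**Figure D4:**
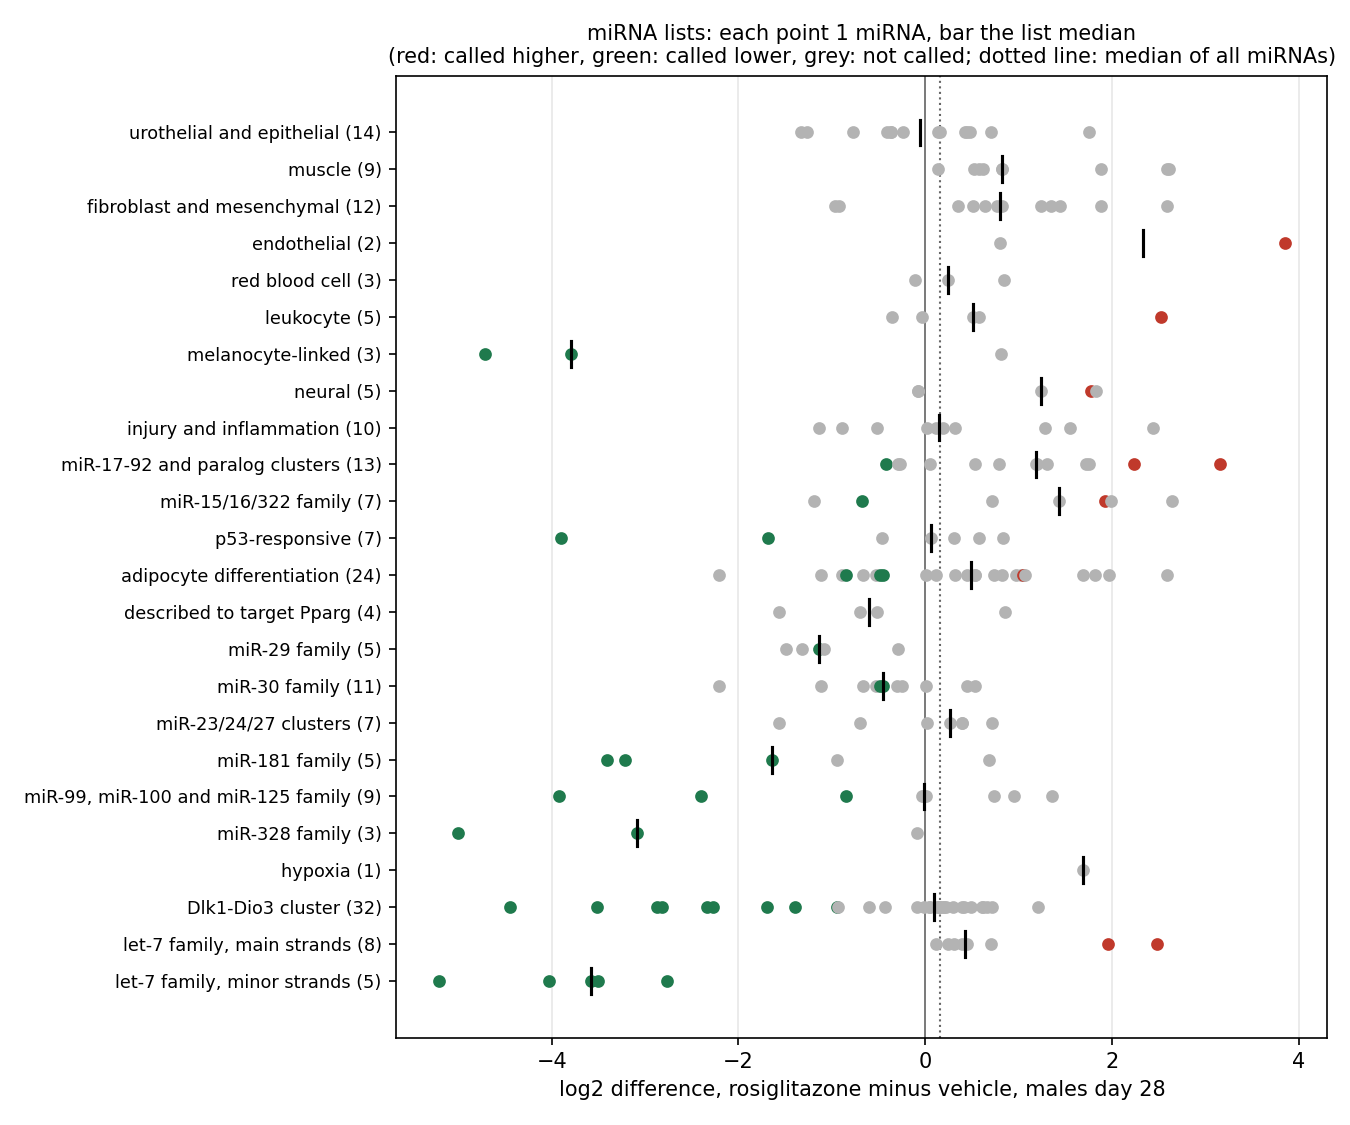
Log2 differences, rosiglitazone minus vehicle in males at day 28, of the miRNAs of each list, with the number measured in brackets. Bars are list medians, colours mark calls and the dotted line is the median of all miRNAs, 0.16. The let-7 minor strands lie at -5.21 to -2.77, while the 14 epithelial miRNAs hold no call.

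Both groups were then set against male rats of the other days. Over the 52 lower calls, the median level was 3.64 with rosiglitazone at day 28 and 7.03 with vehicle at day 28, against 3.76 with vehicle at days 3 and 90. The rosiglitazone mean lay within the range of the vehicle arrays of days 3 and 90 in 48 of the 52, and the vehicle mean of day 28 in 9. Over the 22 higher calls these counts were 20 and 4, and over all 301 miRNAs they were 244 and 148. Among vehicle males, day 28 minus the mean of days 3 and 90 gave 156 calls (51.8%), 48 higher and 108 lower. let-7b* rose by 5.30 (SE 0.59, adjusted p = 4.71e-13), miR-211 by 5.16 and miR-328b-3p by 5.12 at day 28, while miR-143 fell by 4.79, miR-126 by 4.75 and miR-195 by 4.68. With vehicle replicate 1 as the lone vehicle array of day 28, this comparison gave 2 calls.

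The same comparison in rosiglitazone males gave 1 call (0.332%). miR-667, from the Dlk1-Dio3 cluster, was at 5.06, 3.10, 7.44, 11.45 and 8.65 at day 28, against 3.56 ± 0.38 at day 3 and 3.44 ± 0.32 at day 90 (SD, n = 5 each). All but replicate 2 of day 28 exceeded every rosiglitazone array of the other days. The difference was 3.64 (SE 0.64, adjusted p = 4.02e-05). Between the drug and vehicle at day 28 it was -0.93 (adjusted p = 0.437), with the vehicle arrays at 3.41, 9.60, 8.90 and 10.37. Leaving out rosiglitazone replicate 1, 2 or 3 of day 28 gave 7, 6 or 2 calls in rosiglitazone males.

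**Figure D5:**
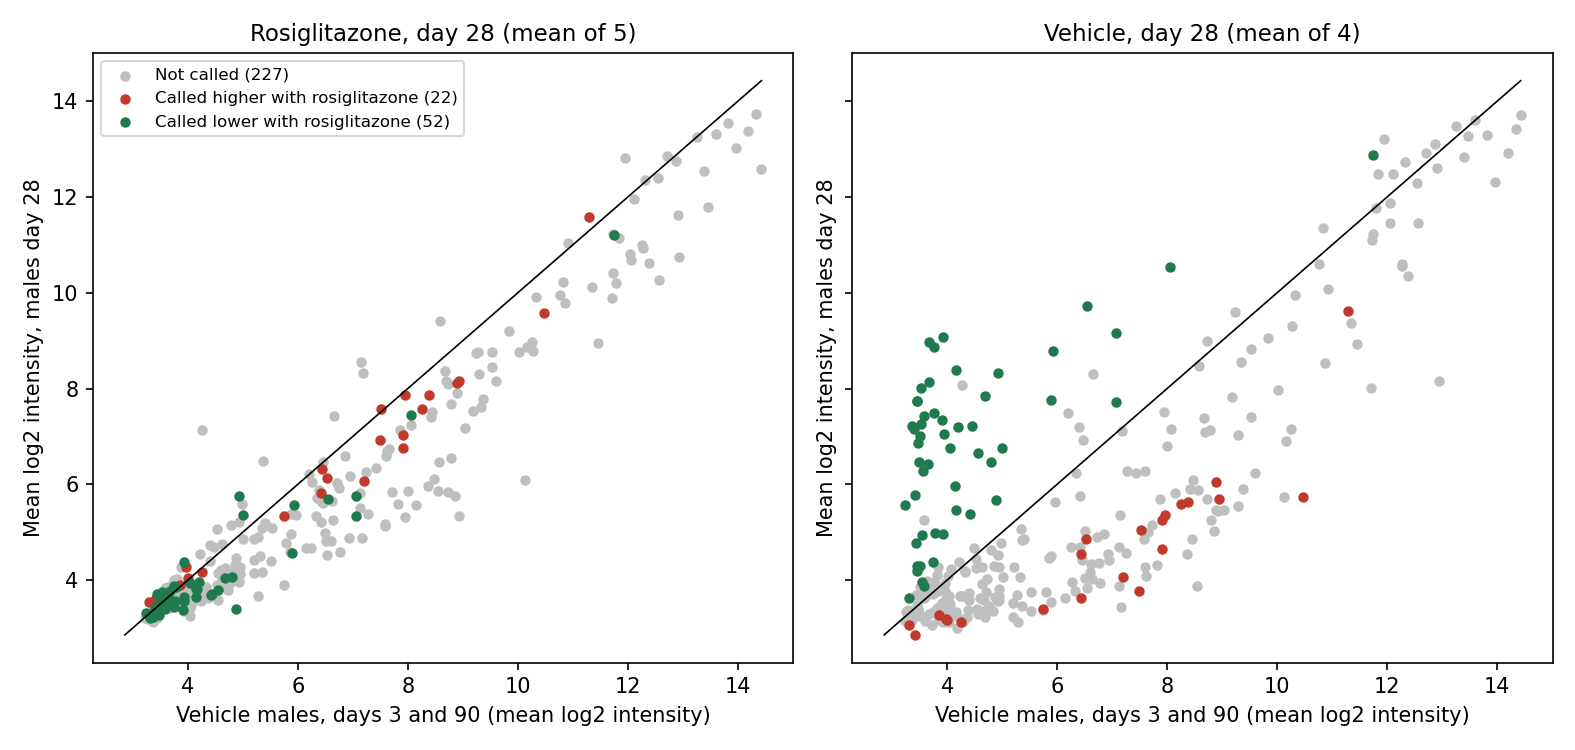
Mean log2 intensity of each miRNA in rosiglitazone males (left) and vehicle males (right) at day 28, against its mean in vehicle males of days 3 and 90. The line marks equal levels. The miRNAs called lower lie near the line on the left (median 3.64 against 3.76) and above it on the right (median 7.03).

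With the vehicle males of days 3 and 90 in place of those of day 28, 21 miRNAs were called (6.98%), 1 higher and 20 lower, and the median of all miRNAs was -0.50. The higher one was miR-667, at 2.88. The lower ones included all 3 red blood cell miRNAs, with miR-451 at -3.59 (adjusted p = 0.0363), miR-144 at -2.47 and miR-144* at -0.75. They also held 3 of 12 fibroblast and mesenchymal miRNAs (miR-199a-3p at -4.04, miR-152 at -2.19 and miR-218 at -1.71) and 2 of 5 leukocyte miRNAs (miR-142-3p at -2.11 and miR-142-5p at -1.86). These members of the lists were named after their values were seen. Mean levels of the red blood cell list per array were 3.64 to 6.44 with rosiglitazone at day 28, against 4.75 to 9.11 in vehicle males of days 3 and 90, and the part of such cells in this comparison was not tested. Of the 31 miRNAs named by rule for the main comparison, 0 were called against the vehicle males of the other days, 2 had an unadjusted p under 0.05, and 16 had the opposite sign. let-7b* differed by 0.093 (adjusted p = 0.930), miR-211 by 0.45 (adjusted p = 0.629), miR-126 by -0.89 (adjusted p = 0.403) and let-7e by 0.28 (adjusted p = 0.679). Day and group cannot be told apart in this comparison.

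The difference between rosiglitazone and vehicle in males at day 28 was also tested against the same difference in females and at the other days. Males minus females at day 28 gave 68 calls (22.6%), 20 higher and 48 lower, and in females alone rosiglitazone minus vehicle gave 0 calls in limma, with 38 (12.6%) at an unadjusted p under 0.05. In females let-7b* averaged 3.22 ± 0.13 (SD, n = 5) with rosiglitazone, against 3.26 ± 0.16 (SD, n = 5) with vehicle, and its sex difference was -5.17 (SE 0.91, adjusted p = 3.29e-06). The other named were miR-702-3p (-4.93) and miR-211 (-4.88), and on the positive side miR-143 (6.14), miR-126 (4.90) and miR-322 (4.89). In miR-143, whose male arrays overlapped, females averaged 8.34 ± 2.51 (SD, n = 5) with rosiglitazone, against 11.90 ± 1.04 (SD, n = 5) with vehicle. Males at day 28 minus males at days 3 and 90 gave 56 calls (18.6%), 13 higher and 43 lower, among them miR-126 (4.05), miR-19a (3.54), miR-101a (2.87), let-7b* (-4.75), miR-328b-3p (-4.35) and miR-211 (-4.20). With vehicle replicate 1 as the lone vehicle array of males at day 28, these counts were 7 and 4.

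The pioglitazone males of day 28 share the vehicle arrays, so levels are given side by side without a comparison of effects. Over the 52 miRNAs called lower, the median level was 3.64 with rosiglitazone, 5.39 with pioglitazone at 16 mg/kg/day, 3.67 with pioglitazone at 63 mg/kg/day and 7.03 with vehicle. let-7b* averaged 7.70 ± 0.82 (SD, n = 4) with pioglitazone at 16 mg/kg/day and 3.90 ± 1.47 (SD, n = 5) at 63 mg/kg/day. For miR-211 the lower dose gave 8.05 ± 0.78 and the higher dose 3.84 ± 1.38. miR-126 averaged 8.68 ± 2.09 at the lower dose and 9.63 ± 0.61 at the higher dose. The arrays of the lower dose correlated with the vehicle array that failed quality control at 0.563 to 0.743. Those of the higher dose did so at 0.362 to 0.530, and vehicle replicates 3, 4 and 5 at 0.846 to 0.870. Dose and this likeness cannot be told apart here, and neither was tested.

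Sequence composition differed between the calls, as a description without a test. A mature sequence was matched for 255 of 301 miRNAs (84.7%), for 44 of the 52 lower calls and 19 of the 22 higher calls. The median share of C was 31.9% in the lower calls, 17.4% in the higher calls and 22.7% in all 255. The median share of A was 14.3% in the lower calls and 22.7% both in the higher calls and in all 255, and the median share of G and C together was 50.0% in the lower calls, 42.9% in the higher calls and 47.6% in all 255. The median share of G was 18.6% in the lower calls and 23.8% both in the higher calls and in all 255. Across the 255 miRNAs, which share probes' labelling and arrays and are not independent, Spearman's rho of the difference with the share of A was 0.35 and with length -0.03. It was 0.21 with the share of G, -0.11 with that of U and -0.25 with that of G and C together. The letters CCU, searched on the mature strand only, stood in 24 of 44 lower calls (54.5%), 6 of 19 higher calls (31.6%) and 81 of all 255 (31.8%). CUGCC, also searched, stood in 5 of 44 lower calls (11.4%), 0 of 19 higher calls and 13 of all 255 (5.1%). A set rich in C holds such letters more often, so these counts are not separate from the share of C. Among the sequences shown, CCU occurs in let-7b*, let-7d*, miR-3596b, miR-328b-3p, miR-211, miR-207 and miR-346. The part of base composition in the calls was not tested.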

How the data were processed

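MiRNA levels of scraped bladder urothelium were measured on 1-colour Agilent rat miRNA arrays, with total RNA labelled with Cy3. Per the submitters' processing notes, which name RMA and limma without versions, the authors deposited a table of log2 intensities. Details of background correction, probe summary and filtering, not given in the sources used here, could change low levels most.

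The deposited log2 values were used as they are for 301 miRNAs on 116 arrays, without the 3 that the labels mark as failing quality control. limma 3.58.1 (R 4.3.3) fitted 1 mean for each of 24 groups with a median standard deviation of 0.85 on 92 residual degrees of freedom, to which moderation added 2.33. Tests were two-sided, with Benjamini-Hochberg adjustment over the 301 miRNAs within each contrast and a threshold of 0.05. Single miRNAs were also tested with an exact permutation test of the difference of means over the 126 splits of 5 and 4 arrays. The 95% interval of a log2 difference was the estimate plus or minus a median of 1.14, and the number of arrays limits the precision. The script was tested on simulated data.

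Named miRNAs were up to 12 called higher and 12 called lower by size, up to 8 more in each direction whose arrays did not overlap, and the 5 with the smallest p in the fit of the 2 groups alone, 31 in all. For other contrasts they were up to 3 in each direction, or the 2 with the smallest p where none was called, and list members could serve as examples. The comparison and the lists were chosen with earlier results of these data known. Lists were matched by hairpin, both strands. Alternatives kept the failed arrays, centred or quantile-normalised the arrays, took the array median as a covariate, kept brighter miRNAs, fitted fewer groups, used robust moderation, array weights or a replicate block, replaced the vehicle group by that of other days, or left out single arrays. The low dose of pioglitazone is taken from the labels (16 mg/kg/day), and the series' design text differs.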

Additional observations from a re-analysis of the deposited data

Results flagged for a closer look

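Single arrays stood away from the rest of their group in 25 of 66 checks of the 31 named miRNAs, the array median and the correlation with vehicle males of days 3 and 90. The check compares an array's gap to its neighbour with the range of its group of 4 or 5. Chance gives about 1 in 20 for a single unselected check. The named miRNAs were chosen from these arrays and share them, so that rate is no yardstick for the 25. Rosiglitazone replicate 4 was low for miR-126 (5.73), miR-19a (4.25), miR-361 (3.63), miR-98 (4.87), miR-20b-5p (3.92), miR-101b (4.41) and miR-140 (3.66), and in its correlation (0.611). Rosiglitazone replicate 3 was high for let-7b* (5.60), miR-328b-3p (6.52), miR-211 (7.79), miR-349 (4.41), miR-3550 (4.94) and miR-346 (4.37). Vehicle replicate 1 was high for miR-223 (6.80), miR-20b-5p (7.91), miR-542-3p (4.77) and miR-352 (5.83). It was low for miR-328b-3p (3.03), miR-349 (3.35), miR-3550 (3.04), miR-487b* (3.10), miR-346 (3.18), miR-207 (3.12) and miR-191* (4.27). What sets these arrays apart was not tested.

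The difference between rosiglitazone and vehicle at day 28 was unlike in males and females, by the test of that difference in limma, for miR-143 (6.14, males minus females), miR-126 (4.90), miR-322 (4.89), let-7b* (-5.17), miR-702-3p (-4.93) and miR-211 (-4.88). In males it was unlike at day 28 and at days 3 and 90 for miR-126 (4.05), miR-19a (3.54), miR-101a (2.87), let-7b* (-4.75), miR-328b-3p (-4.35) and miR-211 (-4.20). All of these contrasts take in vehicle replicates 3, 4 and 5 of males at day 28.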

How the results depend on the processing

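The 74 calls of the main comparison became 22 among the 150 brighter miRNAs (15 higher, 7 lower), 0 in the limma fit of the 2 groups alone (70 at an unadjusted p under 0.05), 48 in the 4 male groups of day 28, 176 with array weights (118 higher, 58 lower), whose estimation gave a convergence warning, 21 against vehicle males of days 3 and 90, 2 with vehicle replicate 1 as the lone vehicle array and 0 with rosiglitazone replicate 4 also left out (13 unadjusted). Leaving out 1 array at a time gave 57 (without vehicle replicate 5) to 107 (without vehicle replicate 1). Keeping the failed array gave 95 calls and robust moderation 74. The main fit did not pair the samples by replicate number. Deviations of same-numbered arrays correlated at 0.50, 0.29, 0.09 and 0.06, which alone cannot show whether the numbers pair the samples. A limma fit with the replicate number as a block gave 68 calls, against 74 without the block. With the block the call for miR-20b-5p was lost (adjusted p = 0.0606) and those for the other 30 named miRNAs were not.

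For the sex difference (68 calls), brighter miRNAs gave 11, the 4 groups alone 16, array weights 155, vehicle replicate 1 alone 7 and rosiglitazone replicate 4 also out 6, with 45 (without vehicle replicate 3 or 5) to 96 when single arrays were left out. For day 28 against days 3 and 90 (56 calls), the counts were 12 with brighter miRNAs, 164 with array weights, 4 with vehicle replicate 1 alone and 2 with rosiglitazone replicate 4 also out, and 37 (without vehicle replicate 5) to 87 (without vehicle replicate 1) without single arrays. Among vehicle males (156 calls) the array median as a covariate gave 94, brighter miRNAs 82, array weights 238, vehicle replicate 1 alone 2, and leaving out arrays 125 to 177. Among rosiglitazone males (1 call) the covariate and the replicate block gave 3 each, array weights, brighter miRNAs and the groups alone 0 in limma (21, 27 and 20 at an unadjusted p under 0.05), quantile normalisation 9, and leaving out arrays 1 to 7 (7 without rosiglitazone replicate 1 of day 28, 3 without replicate 3 of day 90). Of the 31 named miRNAs, 16 had an exact permutation p under 0.05, 27 with the failed array kept, 8 after centring, and 8 to 23 when single arrays were left out. Some of the 31 were named because their groups did not overlap, which fixes that p in the main setting.

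Differences of named miRNAs changed sign against vehicle males of days 3 and 90 for miR-361 (-0.084), miR-20b-5p (-0.50), miR-19a (-0.56), miR-542-3p (-0.62), miR-140 (-0.68), miR-98 (-0.77), miR-101b (-0.78), miR-126 (-0.89), miR-352 (-1.12), miR-301a (-1.15), miR-346 (0.0028), miR-3550 (0.0100), miR-29a* (0.070), let-7b* (0.093), miR-328b-3p (0.12) and miR-211 (0.45). With vehicle replicate 1 as the lone vehicle array they did so for miR-98 (-0.018), miR-20b-5p (-0.035), miR-140 (-0.076), miR-101b (-0.27), miR-361 (-0.59), miR-207 (0.11), miR-99b* (0.14), miR-349 (0.15), miR-487b* (0.20), miR-702-3p (0.27), miR-346 (0.28), miR-3550 (0.50), let-7b* (0.58), miR-328b-3p (0.84) and miR-211 (1.14). With rosiglitazone replicate 4 also left out they did so for miR-223 (-0.072), miR-207 (0.094), miR-702-3p (0.15), miR-349 (0.18), miR-487b* (0.19), miR-99b* (0.23), miR-346 (0.36), miR-3550 (0.56), let-7b* (0.70), miR-328b-3p (1.02) and miR-211 (1.26). Both settings with vehicle replicate 1 alone were chosen after seeing the data, and no named miRNA was called under them. The cause was not tested, beyond that fewer arrays or fewer miRNAs enter some of these fits. Values near the lower end of the scale limit what small differences can show.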
